A study of Rattus norvegicus with 12 samples.

Results

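The EGF receptor family genes measured here were the receptors Egfr, Erbb2 and Erbb3, the ligands Areg, Ereg, Hbegf, Tgfa, Btc and Nrg1, and the feedback inhibitor Errfi1. They were chosen by gene name, and every probe set annotated to 1 of these 10 symbols alone was taken. They are 10 of 14217 genes named by such single symbols. They gave 20 probe sets, of 20826 with 1 symbol and 31042 in all that were not controls. The cells were F111, an established fibroblast line from the Fischer rat, grown in DMEM with fetal calf serum. NA16 was compared with A16. NA16 cells were kept non-adherent on agarose for 16 h, and A16 cells, the control, were adherent on plastic for 16 h. The study's results give the name NA16 to the cells that survived that time, while its methods give it to the cells collected from agarose. No removal of dead cells before RNA extraction is described. The study reports that most cells had lost viability by then and that NA16 cells showed DNA fragmentation. The RNA may therefore come from surviving and dying cells. RNA of each state was hybridised to 3 Affymetrix rat arrays, labelled biological replicates 1 and 2 and technical replicate 2.

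EGF family ligands are made as membrane-anchored precursors, and cell surface proteases release most of them. A released ligand brings receptors together in pairs, and the paired kinases phosphorylate each other and recruit adaptors that start the Ras and ERK, PI3K and Akt, and STAT pathways. Activity is limited by receptor uptake and breakdown and by inhibitors that the signal itself induces. Fibroblasts are a classical setting for this pathway, since EGF is a mitogen for them and adhesion through integrins also engages the EGF receptor.

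The promoters of Egfr, the receptor gene that was called higher, and of Areg, a ligand gene that was called lower, are shown so that the sequences ahead of a gene from each side of the family can be compared. The windows are the 250 bases before the annotated start in RefSeq, build GRCr8, at chr14:95378376-95378625 on the plus strand for Egfr and at chr14:17265642-17265891 on the minus strand for Areg. Capitals mark matches to the motifs searched.
Egfr: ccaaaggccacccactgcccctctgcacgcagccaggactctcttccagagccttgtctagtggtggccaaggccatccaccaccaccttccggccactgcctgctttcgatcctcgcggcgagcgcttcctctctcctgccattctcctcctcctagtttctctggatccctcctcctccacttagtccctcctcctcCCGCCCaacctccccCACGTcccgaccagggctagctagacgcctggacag
Areg: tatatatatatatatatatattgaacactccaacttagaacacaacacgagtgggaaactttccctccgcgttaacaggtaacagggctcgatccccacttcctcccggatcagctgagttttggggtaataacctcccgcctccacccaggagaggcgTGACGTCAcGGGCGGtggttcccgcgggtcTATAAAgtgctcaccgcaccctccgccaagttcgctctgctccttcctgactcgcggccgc
The letters of each motif, searched on both strands, are given below with the share of all windows that held them. No matched site in these windows shares a base with another. The Egfr window held a GC box on the minus strand, 46 bases before the start, and a HIF core on the minus strand, 32 bases before it. The Areg window held a CRE 84 bases before the start, a GC box 77 bases before it and a TATA box 56 bases before it.

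RefSeq windows were matched for 7 of the 10 genes, namely Egfr, Erbb2, Areg, Hbegf, Tgfa, Btc and Errfi1. The windows of Erbb2 and Tgfa reach past the start of the annotated gene. Part of each, with its GC box, lies inside the gene. The CRE, TGACGTCA, was found in 1 of the 7 and in 1.7% of all 27457 windows of this length. The GC box, GGGCGG, was found in 6 of the 7, in all but Hbegf, and in 32.4% of all windows. The TATA box was searched as TATAAA and stood in 2 of the 7 (Areg and Errfi1) and in 13.1% of all windows. The core of the HIF site, ACGTG, stood in 2 of the 7 (Egfr and Errfi1) and in 16.9%. The AP-1 site, TGANTCA, was found in 0 of the 7 and in 6.36% of all windows. All 7 windows were richer in G or C than the median of 52% over all windows. They ran from 54.4% for Areg to 74.4% for Tgfa, with Egfr at 63.6%. The shares over all windows were not matched for this, which matters most for the GC box. Btc lies on the same chromosome as Areg, with its window at chr14:16992418-16992667 on the plus strand. These matches describe letters only, and no binding was measured.

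Values are log2 of the RMA intensity, on which a change of 1 is a 2-fold difference, and changes are NA16 minus A16. The arrays of a state are given in the order biological replicate 1, biological replicate 2 and technical replicate 2. The labels number biological replicate 1 as technical replicate 1, so technical replicate 2 was averaged with it, which left 2 replicates per state. In A16, technical replicate 2 did correlate best with biological replicate 1 (r = 0.997, against 0.991 with biological replicate 2, over probe sets). In NA16 it went against this reading and correlated best with biological replicate 2 (r = 0.997, against 0.993 with biological replicate 1), so results that turn on this choice are given both ways. What made a repeat biological is not stated, so p-values reflect no more than the scatter of these samples, part of which may be technical. Array medians of RMA intensity lay between 152 and 157. The lowest intensity was 16.1 by RMA and 16.0 by PLIER, so a constant may have been added, which would make changes at low signal look smaller than they are. A probe set is called dim below where its mean was under 5.87, the 0.25 quantile of all probe sets.

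A probe set was called at an adjusted p under 0.05 in limma, adjusted over all 31042 probe sets. Of the 20 probe sets of the family, 2 were called higher in NA16, 8 were called lower and 10 were not called. Over all probe sets with 1 symbol, 17% were called higher and 15.2% lower. By gene, Egfr was higher, 4 of the 6 ligands were lower (Areg, Hbegf, Tgfa and Nrg1), and Erbb2, Erbb3, Ereg, Btc and Errfi1 were not called. The genes taken by their brightest probe set were called higher in 20%, lower in 15.4% and either way in 35.4%. The median change was 0.07 for the 5 receptor probe sets and -0.71 for the 14 ligand probe sets, beside -0.01 for all probe sets with 1 symbol.

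**Figure D1:**
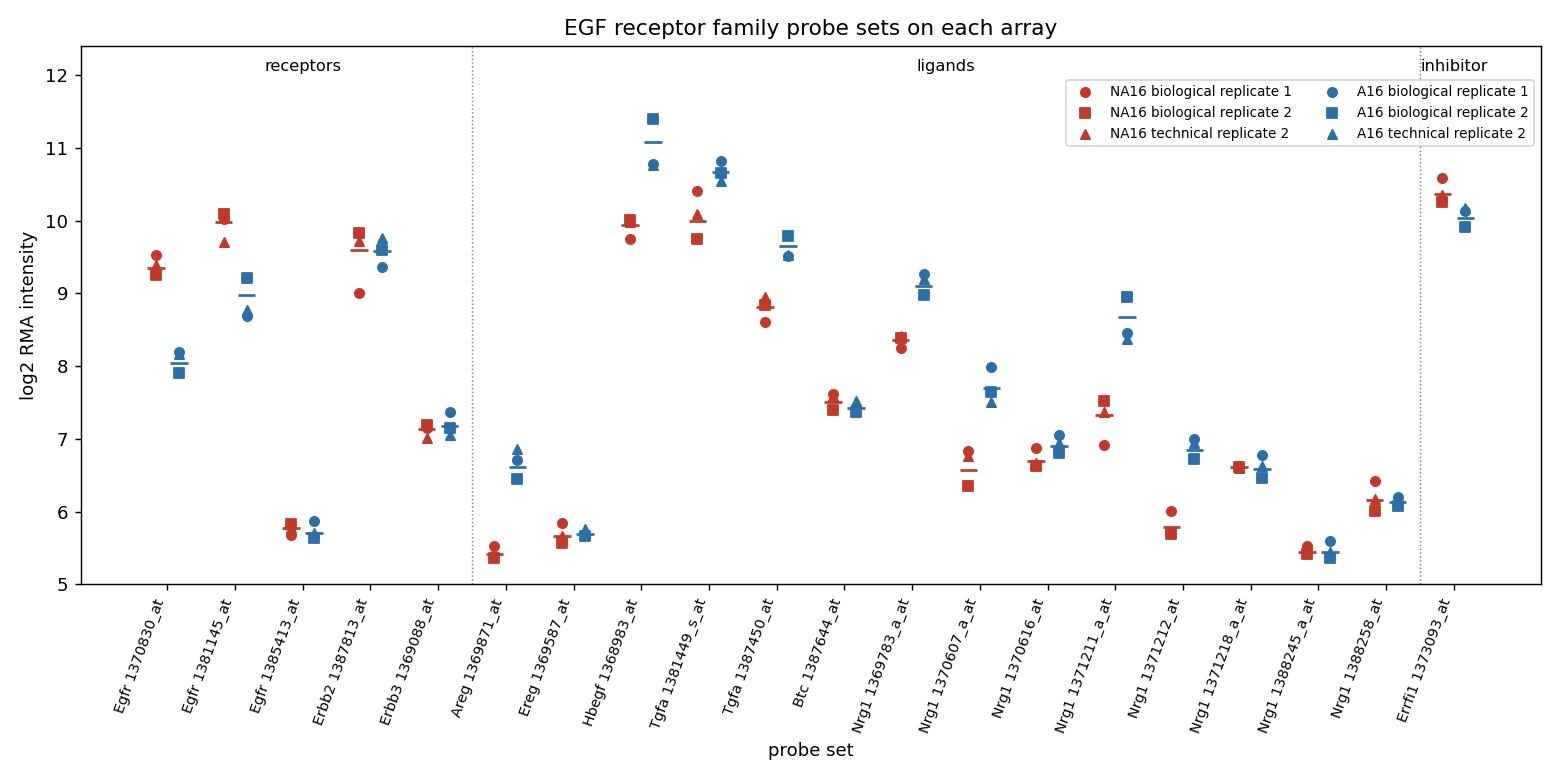
Log2 RMA intensity (y axis) of the 20 probe sets of the family (x axis) on each of the 6 arrays, with NA16 in red left of A16 in blue and a bar at the mean of the 2 replicates of each state. The NA16 arrays lie above all A16 arrays for Egfr 1370830_at and 1381145_at, and below them for Areg, Hbegf, both Tgfa probe sets and 4 of the 8 Nrg1 probe sets.

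Egfr encodes the EGF receptor, the receptor tyrosine kinase that binds EGF, amphiregulin, TGF alpha, HB-EGF, epiregulin and betacellulin. Its probe set 1370830_at measured 9.52, 9.25 and 9.39 in NA16, against 8.20, 7.90 and 8.16 in A16. Each NA16 array was above each A16 array, by more than the spread within either state. The means were 9.35 ± 0.15 in NA16 and 8.04 ± 0.20 in A16 (SD, n = 2 each), a change of 1.31 (95% interval 0.96 to 1.66, 2.48-fold, adjusted p = 0.0019 in limma).

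A second Egfr probe set, 1381145_at, measured 10.02, 10.09 and 9.71 in NA16, against 8.69, 9.22 and 8.77 in A16. Here too the states did not overlap, with A16 biological replicate 2 the highest of its state. The change was 1.01 (95% interval 0.54 to 1.47, 2.01-fold, adjusted p = 0.011). The third Egfr probe set, 1385413_at, measured 5.68, 5.83 and 5.77 in NA16, against 5.87, 5.63 and 5.70 in A16. The arrays of the states were interleaved at a dim signal, and the change was 0.07 (95% interval -0.22 to 0.35, adjusted p = 0.77). The mean over the 3 Egfr probe sets changed by 0.79 and was called. The study's own table has Egfr higher in NA16 by array, but that value rests on the study's own arrays and is not a separate measurement. The study's quantitative PCR value for the same comparison points the other way, to much lower Egfr RNA in NA16. Why these measures differ was not tested. In these bulk samples, a change in the make-up of the cells and a change in RNA per cell cannot be told apart.

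Erbb2 encodes the partner receptor that has no known ligand of its own. It measured 9.01, 9.82 and 9.72 in NA16, against 9.35, 9.60 and 9.76 in A16. The A16 arrays lay within the range of the NA16 arrays, and biological replicate 1 was the lowest array of both states. The change was 0.02 (95% interval -0.40 to 0.43, adjusted p = 0.96).

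Erbb3, the neuregulin receptor whose own kinase is weak, measured 7.14, 7.19 and 7.02 in NA16, against 7.36, 7.15 and 7.05 in A16. The states overlapped, and the change was -0.05 (95% interval -0.31 to 0.22, adjusted p = 0.84). The intervals of Erbb2 and Erbb3 both lie below the change fitted for either called Egfr probe set, though the difference between the genes was not tested. Erbb4, the remaining receptor of the family and a neuregulin receptor, measured 5.73 ± 0.05 in NA16 and 5.44 ± 0.15 in A16 (SD, n = 2 each). Its change of 0.29 was not called (adjusted p = 0.14), and the probe set was dim.

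Areg encodes amphiregulin, a ligand of Egfr alone. It measured 5.52, 5.36 and 5.45 in NA16, against 6.71, 6.44 and 6.86 in A16. The states were well apart, with all NA16 arrays low and close to one another. The change was -1.19 (95% interval -1.55 to -0.83, 2.29-fold lower, adjusted p = 0.0027). With the constant of 16 subtracted from every intensity the change was -1.61.

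Hbegf encodes HB-EGF, the heparin-binding ligand of Egfr and Erbb4, which is also the diphtheria toxin receptor in humans. It measured 9.74, 10.01 and 9.98 in NA16, against 10.78, 11.39 and 10.76 in A16. All A16 arrays were above all NA16 arrays, and A16 biological replicate 2 stood highest. The means were 9.94 ± 0.10 in NA16 and 11.08 ± 0.44 in A16 (SD, n = 2 each), a change of -1.15 (95% interval -1.67 to -0.62, 2.21-fold lower, adjusted p = 0.011).

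Tgfa encodes TGF alpha, an Egfr ligand first known from transformed cells. Its probe set 1387450_at measured 8.60, 8.84 and 8.94 in NA16, against 9.52, 9.79 and 9.53 in A16. The states did not overlap, and the change was -0.85 (95% interval -1.16 to -0.53, 1.8-fold lower, adjusted p = 0.0055). The other probe set, 1381449_s_at, carries a suffix that Affymetrix gives where probes can match several transcripts. It measured 10.41, 9.74 and 10.09 in NA16, against 10.81, 10.65 and 10.54 in A16, so the NA16 arrays were lower but spread more widely. Its change was -0.67 (95% interval -1.11 to -0.23, adjusted p = 0.041). Without NA16 replicate 2 this became -0.42 (adjusted p = 0.15), and the call was also lost without A16 replicate 1 (adjusted p = 0.12) or A16 replicate 2 (adjusted p = 0.11). It was lost as well when technical replicate 2 was averaged with the array it correlated best with (-0.50, adjusted p = 0.12).

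Nrg1 encodes neuregulin 1, the ligand of Erbb3 and Erbb4, and is spliced into many isoforms. It had 8 probe sets, of which 4 were lower in NA16 and 4 were not called. The largest change was that of 1371211_a_at, which measured 6.91, 7.52 and 7.36 in NA16, against 8.46, 8.95 and 8.37 in A16. The lowest A16 array was still above the highest NA16 array, and the change was -1.35 (95% interval -1.89 to -0.81, 2.55-fold lower, adjusted p = 0.0069).

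Of the other Nrg1 probe sets called, 1370607_a_at measured 6.83, 6.35 and 6.76 in NA16, against 7.98, 7.64 and 7.51 in A16. Again each NA16 array was the lower, with a change of -1.12 (adjusted p = 0.0052). Probe set 1371212_at measured 6.01, 5.70 and 5.73 in NA16, against 6.99, 6.72 and 6.94 in A16. This was a change of -1.06 (adjusted p = 0.003), and it was -0.66 where the constant of 16 was added to the PLIER values. Brightest was 1369783_a_at, which measured 8.25, 8.38 and 8.41 in NA16, against 9.27, 8.97 and 9.19 in A16. Its states did not overlap either, and it changed by -0.75 (adjusted p = 0.0081).

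The 4 Nrg1 probe sets that were not called were 1370616_at, 1371218_a_at, 1388245_a_at and 1388258_at. Their changes lay between -0.21 and 0.03, their adjusted p between 0.31 and 0.99, and their arrays overlapped. Their A16 means lay between 5.44 and 6.90, against 6.84 to 9.10 for the 4 that were called. The mean over the 8 Nrg1 probe sets changed by -0.55 and was called. Which isoforms each probe set reads was not resolved here.

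Ereg encodes epiregulin, a ligand of Egfr and Erbb4. It measured 5.84, 5.56 and 5.66 in NA16, against 5.68, 5.66 and 5.76 in A16. The probe set was dim and its arrays overlapped, with a change of -0.03 (95% interval -0.32 to 0.25, adjusted p = 0.90). Btc encodes betacellulin, also a ligand of Egfr and Erbb4, and measured 7.62, 7.40 and 7.59 in NA16, against 7.41, 7.37 and 7.52 in A16. Its arrays overlapped too, and its change was 0.08 (95% interval -0.21 to 0.38, adjusted p = 0.71). Of the ligand probe sets 0 of 14 were called higher in limma, as many as at an unadjusted p under 0.05 and as in the PLIER values.

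Errfi1 encodes MIG6, a protein that is induced by receptor signalling, binds the receptor kinase and holds it inactive. It measured 10.59, 10.26 and 10.35 in NA16, against 10.13, 9.91 and 10.17 in A16. Each NA16 array was above each A16 array by a small margin, and the change was 0.34 (95% interval -0.0041 to 0.67, 1.26-fold, adjusted p = 0.14), which was not called. Across the family the 3 NA16 arrays were all above the 3 A16 arrays for 3 probe sets (the called Egfr probe sets and Errfi1) and all below them for 8. Over all probe sets with 1 symbol these shares were 24.5% above and 24.6% below.

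**Figure D2:**
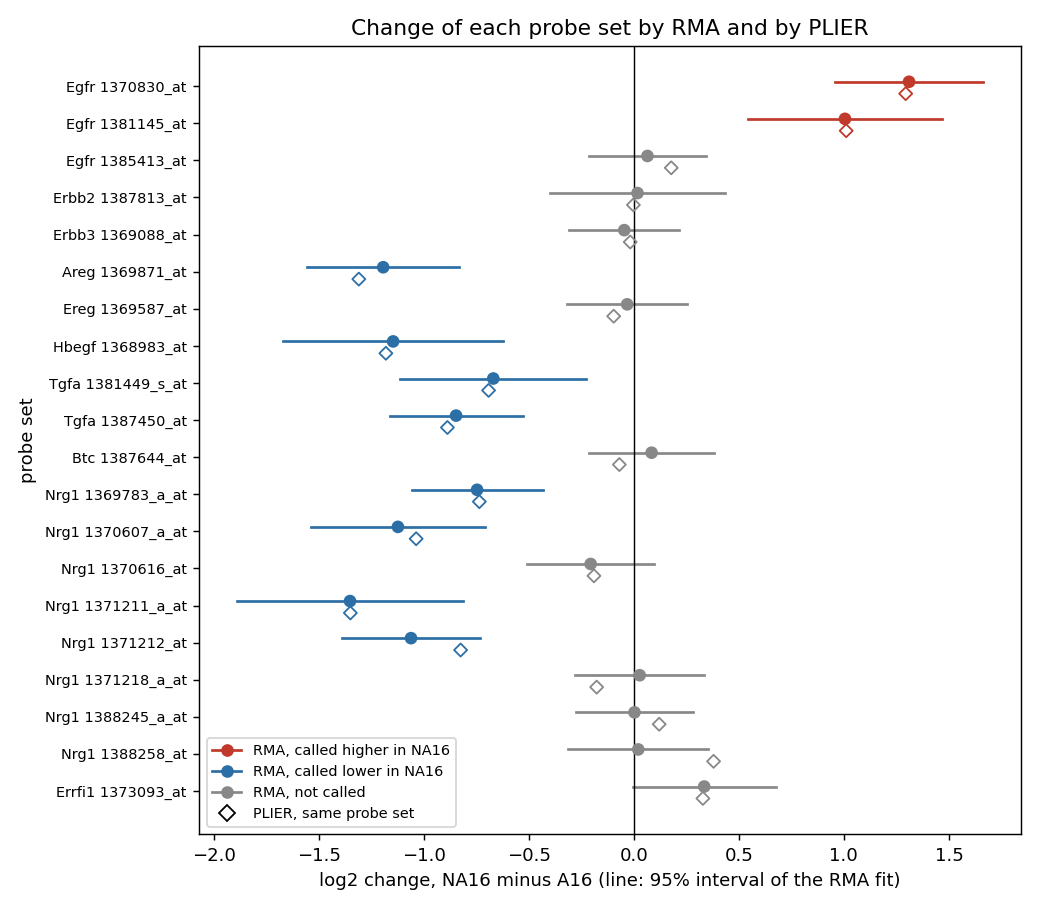
Log2 change, NA16 minus A16 (x axis), of each probe set of the family (y axis), as filled points with the 95% interval of the limma fit to the RMA values and as open diamonds for PLIER, a second summary of the same arrays. By either summary the 2 called Egfr probe sets lie above 0 and the 8 called ligand probe sets below it, and the Errfi1 interval reaches 0.

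PLIER summarised the probes of the same arrays in another way. The PLIER values also gave 2 probe sets higher and 8 lower, beside 16.6% higher and 14.2% lower over all probe sets with 1 symbol. The Egfr changes were 1.29 for 1370830_at and 1.01 for 1381145_at, and those of Areg and Hbegf were -1.31 and -1.18. PLIER and RMA share their arrays, so this is a check of the summary and not of the samples.

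The probe sets also differed in signal level. Of the 20 probe sets 3 were dim (Egfr 1385413_at, Ereg and Nrg1 1388245_a_at), where no large change was fitted, and none of them was called. Called probe sets had A16 means of 6.62 to 11.08, and those not called of 5.44 to 10.03. Both ranges overlap, and Erbb2 and Errfi1 were bright without being called.

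**Figure D3:**
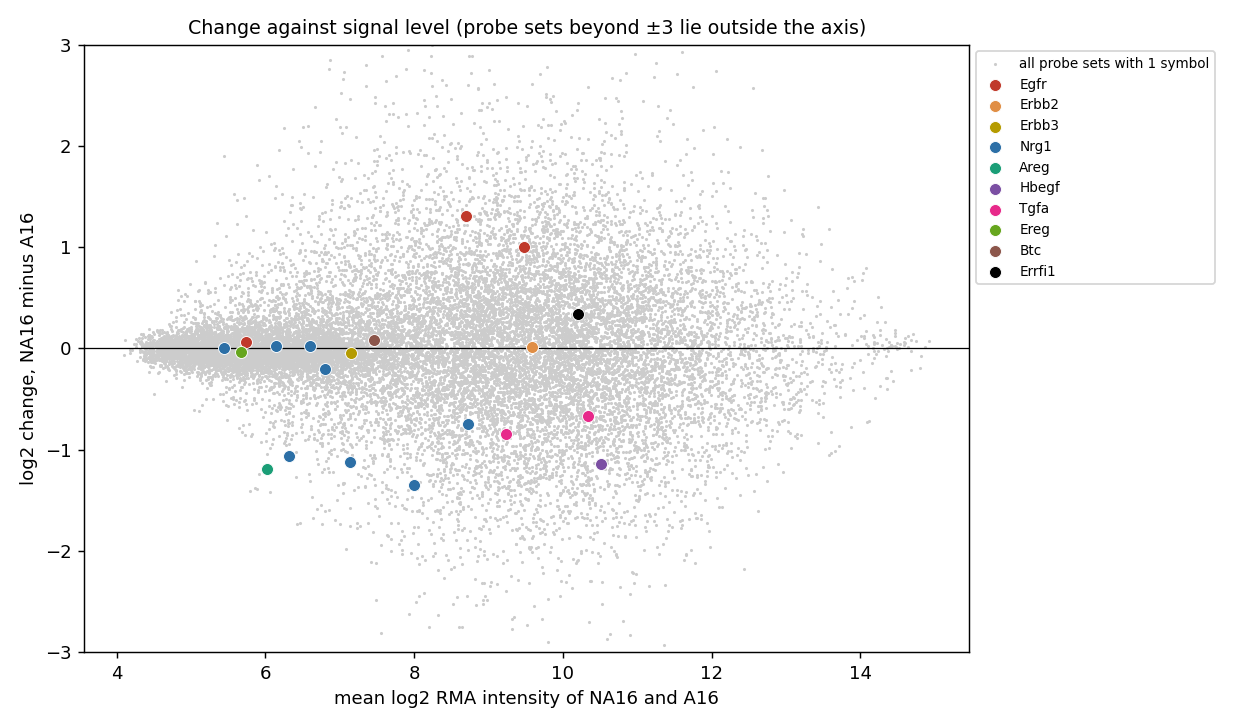
Log2 change, NA16 minus A16 (y axis), against the mean log2 RMA intensity of the states (x axis) for the probe sets of the family in colour and for all probe sets with 1 symbol in grey. The spread of the grey points narrows at low signal, where the uncalled Egfr, Ereg and Nrg1 probe sets lie, while Areg, in the same range of signal, is lower by 1.19.

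The other genes of the pathway were taken from lists by role, each gene by its brightest probe set. Of 99 genes listed 80 were measured and the rest were not analysed here. Of the 80, 22 were higher in NA16, 9 were lower and 49 were not called, that is 27.5% and 11.2%, beside 20% and 15.4% of all genes taken in this way. Their median change was 0.04. Without NA16 replicate 1 the counts were 13 higher and 5 lower, without NA16 replicate 2 they were 11 and 9, and without A16 replicate 2 they were 12 and 6. The count of higher genes was also 11 when technical replicate 2 was averaged with the array it correlated best with.

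The other ligands Egf, Nrg2 and Nrg4 and the receptor Erbb4 gave 0 calls of 4 in limma, 0 at an unadjusted p under 0.05 and 1 (Erbb4, higher) in the PLIER values. Of these Egf, Nrg4 and Erbb4 were dim, so a change there could be missed. Among the proteases that release ligands and their partners, 3 of 10 were higher and 2 lower. Rhbdf2 encodes iRhom2, which carries the protease ADAM17 to the cell surface. It measured 9.02, 10.02 and 9.94 in NA16, against 8.36, 8.48 and 8.41 in A16, a change of 1.31 (adjusted p = 0.0047). NA16 biological replicate 1 was well below the other NA16 arrays, and with technical replicate 2 averaged with the array it correlated best with, the call was lost (1.07, adjusted p = 0.061). The metalloprotease gene Adam15 was higher by 0.86 (adjusted p = 0.017), with NA16 biological replicate 1 again the lowest of its state. Its call was lost in 7 of 18 alternatives, leaving out NA16 replicate 2 (0.62) or A16 replicate 2 (0.77) among them.

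Adam19, a metalloprotease that can cleave neuregulins, was lower by 1.36. It measured 10.04, 10.05 and 10.14 in NA16, against 11.47, 11.32 and 11.62 in A16 (adjusted p = 0.001), with the states far apart. Adam10, the main sheddase of EGF and betacellulin in mouse cells, changed by -0.72 (adjusted p = 0.014), a call that was lost without NA16 replicate 1 (-0.67, adjusted p = 0.067). Adam17, the main sheddase of amphiregulin, TGF alpha and HB-EGF, was among the brighter genes and changed by -0.09 (95% interval -0.35 to 0.16, adjusted p = 0.62).

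Of the adaptors and exchange factors 3 of 13 were higher and 1 was lower. Eps8, an EGF receptor substrate that binds actin, changed most. It measured 9.85, 9.94 and 9.92 in NA16, against 7.89, 7.87 and 7.95 in A16, a change of 2.02 (95% interval 1.76 to 2.27, 4.04-fold, adjusted p = 0.00037). The arrays within each state were almost level. Sos1, the exchange factor that loads Ras, and the docking protein gene Gab1 were both higher by 0.54 (adjusted p = 0.016 and 0.013). Neither call held without NA16 replicate 1, NA16 replicate 2 or A16 replicate 2, where the adjusted p lay between 0.050 and 0.11. Only 1 of the 2 Sos1 probe sets was called. Ptpn11, the phosphatase SHP2 that carries the signal to Ras, was lower by 0.98 (adjusted p = 0.0077).

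In the Ras, Raf, MEK and ERK list 3 of 7 genes were higher and 2 lower. The Ras-related GTPase genes Mras and Rras2 went opposite ways, with Mras higher by 1.60 (adjusted p = 0.0093) and Rras2 lower by 1.76 (adjusted p = 0.00043). Map2k1, the kinase MEK1, was higher by 0.52 (adjusted p = 0.031), and Nras was lower by 0.47 (adjusted p = 0.035). Neither was called in the PLIER values (adjusted p = 0.058 and 0.067 in limma), which gave 1 of the 7 genes higher and 1 lower. The Nras call was lost without any 1 of the 4 replicates (adjusted p between 0.059 and 0.21), and the Map2k1 call without NA16 replicate 1, NA16 replicate 2 or A16 replicate 2 (adjusted p between 0.097 and 0.13).

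In the PI3K, Akt, phospholipase C and STAT list 5 of 12 were higher and 1 was lower. Pik3r3, a regulatory subunit of PI3K, fell furthest of the 80 genes. It measured 7.47, 7.48 and 7.52 in NA16, against 9.71, 10.28 and 9.47 in A16, a change of -2.45 (95% interval -3.01 to -1.89, 5.45-fold lower, adjusted p = 0.0012). The NA16 arrays were level with one another and far below the A16 arrays. Another regulatory subunit gene, Pik3r2, was higher by 0.90 (adjusted p = 0.009), and the transcription factor gene Stat5b by 1.12 (adjusted p = 0.018). Both calls were lost when technical replicate 2 was averaged with the array it correlated best with (0.70 and 0.85, adjusted p = 0.14 and 0.13), and that of Stat5b also without A16 replicate 1 (0.92, adjusted p = 0.072). Only 1 of the 2 Pik3r2 probe sets was called.

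Of the genes of receptor uptake, ubiquitination and sorting 3 of 14 were higher and 1 was lower. Usp8, which removes ubiquitin from receptors on endosomes, was higher by 0.98 (adjusted p = 0.0033), and Sh3kbp1, the Cbl partner CIN85, by 0.91 (adjusted p = 0.0022). Of the 3 Usp8 probe sets 2 were called. Cd2ap, a relative of Sh3kbp1, was lower by 0.50 (adjusted p = 0.019), a call that was lost without any 1 of the 4 replicates (adjusted p between 0.052 and 0.13).

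Of the other negative regulators 4 of 12 were higher and 1 was lower. Zfp36, the mRNA decay factor tristetraprolin, which growth factors induce, measured 11.47, 12.03 and 11.83 in NA16, against 9.79, 10.49 and 9.73 in A16. The states were apart, with biological replicate 2 the highest array of both, and the change was 1.72 (95% interval 1.07 to 2.37, adjusted p = 0.0057). Its relative Zfp36l1 was higher by 0.54 (adjusted p = 0.027), and the phosphatase gene Ptpn1 was lower by 0.53 (adjusted p = 0.025). The Zfp36l1 call was lost without any 1 of the 4 replicates (adjusted p between 0.050 and 0.16), and the Ptpn1 call without NA16 replicate 1, NA16 replicate 2 or A16 replicate 2 (adjusted p between 0.082 and 0.13).

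Of the inhibitors of Ras and ERK signalling, a list that also holds Rasa1 and Nf1, 1 of 8 was higher and 1 was lower. Dusp5, the nuclear phosphatase of ERK, measured 10.55, 10.86 and 10.96 in NA16, against 9.56, 9.67 and 9.53 in A16, a change of 1.20 (adjusted p = 0.0012). Dusp6, the cytoplasmic phosphatase of ERK, measured 10.16, 9.98 and 10.16 in NA16, against 11.44, 10.88 and 11.24 in A16, a change of -1.04 (adjusted p = 0.0079). In both genes the states did not overlap, and the directions were opposite. The Sprouty genes were not called, with changes of 0.35 for Spry1 (adjusted p = 0.051), -0.26 for Spry2 (adjusted p = 0.16) and -0.07 for Spry4 (adjusted p = 0.75).

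**Figure D4:**
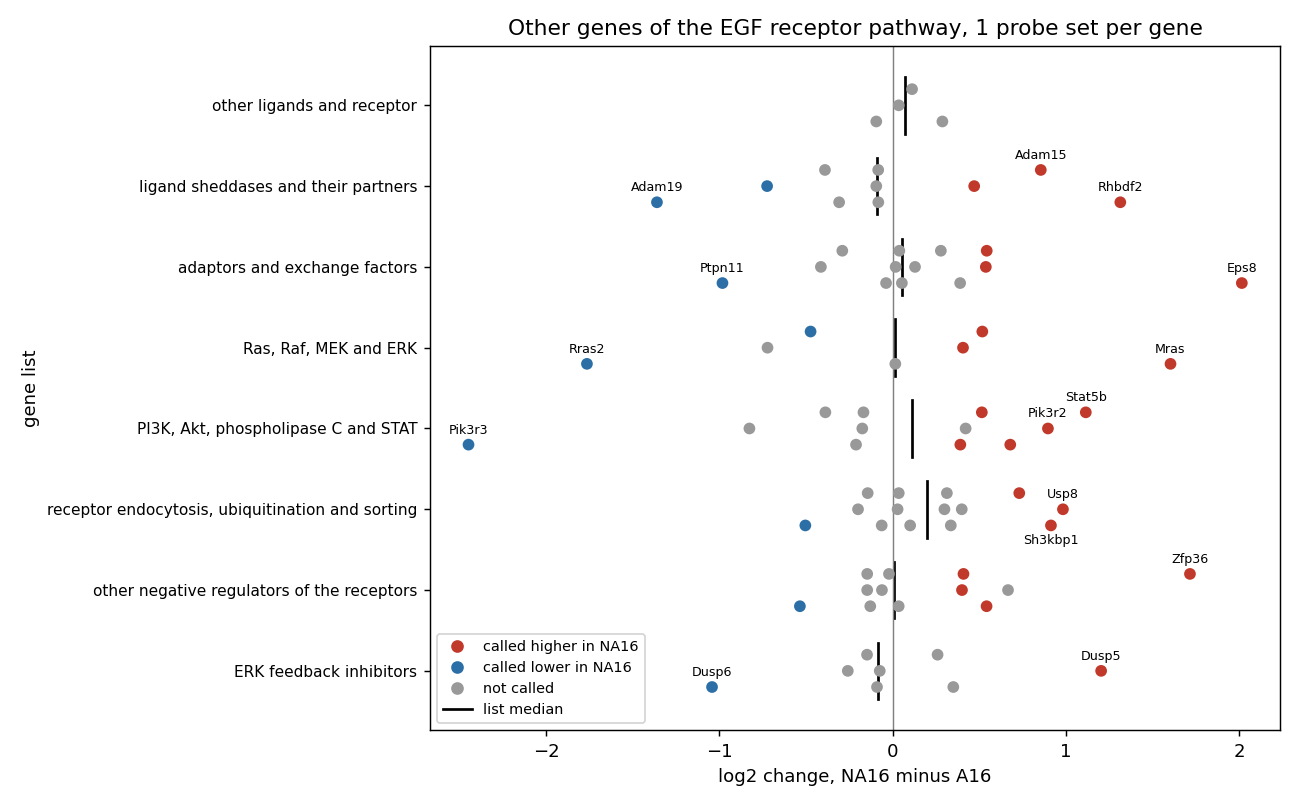
Log2 change, NA16 minus A16 (x axis), of the 80 other pathway genes measured, each by its brightest probe set, in the 8 lists by role (y axis), with called genes in colour and the list median as a bar. Called genes lie on both sides of 0 in each of the lists that had any, all but that of other ligands and receptor, and the list medians lie between -0.09 and 0.20.

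The labelled cell type was checked by markers. Of 12 fibroblast markers 3 were higher in NA16 (Pdgfrb by 1.40, Lum by 1.15 and Pdgfra by 0.78) and 0 lower in limma, with 5 higher and 0 lower at an unadjusted p under 0.05. Only 1 of the 3 Pdgfrb probe sets was called. Col1a1, Col1a2, Fn1 and Vim were in the brightest percentile of the array in signal, and Dcn was dim. Of 10 epithelial markers 2 were higher, Krt8 by 1.26 and Epcam by 0.54, and the log2 of the summed intensity of that list ran from 11.62 to 11.80 in NA16 and from 10.76 to 10.86 in A16. Krt8 alone, at a mean of 11.38 in NA16 and 10.12 in A16, made up most of that sum, and the median change of the list was 0.05. The Epcam call was lost without NA16 replicate 1, A16 replicate 1 or A16 replicate 2 (adjusted p between 0.085 and 0.20). The markers Cdh1, Krt18, Krt19 and Cldn4 were dim. Of 10 macrophage markers 1 was higher (Cd68, by 1.46), with sums of 10.88 to 11.06 in NA16 and 10.98 to 11.15 in A16, and Ptprc, Csf1r, Adgre1 and Tyrobp dim. Cd14 was the brightest of that list, at a mean of 10.17 in NA16 and 10.52 in A16. It went the other way from Cd68, by -0.35, and was not called (adjusted p = 0.088 in limma). Of 6 endothelial markers Pecam1 was higher by 0.48 and Egfl7 lower by 0.37, with sums of 9.57 to 9.68 in NA16 and 9.73 to 9.88 in A16, and Kdr, Tek, Vwf and Emcn dim. Egfl7 was the brightest of these, at a mean of 8.85 in NA16 and 9.22 in A16. The Egfl7 call was lost in 13 of 18 alternatives, leaving out any 1 of the 4 replicates among them (adjusted p between 0.070 and 0.23), and the Pecam1 call in 7 of 18, without NA16 replicate 1, NA16 replicate 2 or A16 replicate 2 among them (adjusted p between 0.069 and 0.12). Of 3 Schwann and neural markers S100b, which was dim, was higher by 0.56, with sums of 7.94 to 8.09 in NA16 and 7.86 to 8.15 in A16. The S100b call was lost in 10 of 17 alternatives, PLIER (adjusted p = 0.052) and leaving out NA16 replicate 2, A16 replicate 1 or A16 replicate 2 (adjusted p between 0.079 and 0.18) among them. The part of other cells in the changes of the family was not tested.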

How the data were processed

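Arrays from Affymetrix, 6 in all, measured RNA of F111 cells in 2 states. The authors extracted it by column, scanned the arrays in GeneChip Operating Software and normalized the scans with Avadis by RMA and PLIER (versions of Avadis and both algorithms not given in the sources used here). Deposited values are normalized intensities on a linear scale, of which log2 was taken. The 12 deposited columns are the 6 arrays under both algorithms, so PLIER was an alternative, not further samples. No detection calls were used, and the number of arrays limits precision.

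Probe sets were named by the platform annotation, checked against RefSeq GRCr8. After control probe sets were set aside 31042 remained, of which 20826 carried 1 symbol. Technical replicate 2 was averaged with biological replicate 1. The states were compared with limma (version 3.58.1, lmFit and eBayes, R version 4.3.3), with no filter on low signal, and p-values were adjusted after Benjamini and Hochberg across the 31042 probe sets, on 2 residual and 3.75 prior degrees of freedom. The code was tested on simulated data. In pathway and marker lists the probe set with the highest mean stood for a gene. Named were every probe set of the family and, from each pathway list, up to 2 called genes per direction with any gene alone in its direction. Members and lists were chosen with earlier results of these data known, and Adam17, Egf, Nrg2, Nrg4, Erbb4, the Sprouty genes and the markers named were added after their values were seen. Alternatives covered PLIER, the constant of 16, the use of technical replicate 2, variance moderation, dim probe sets, genes with several probe sets, array centring, a replicate block, the t-test of the study's methods and leaving out each replicate.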

Additional observations from a re-analysis of the deposited data

How the results depend on the processing

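No called result changed direction under the alternatives run, while changes near 0 that were not called, such as that of Btc, took either sign. The counts for the family (2 probe sets higher and 8 lower, 1 gene higher and 4 lower) stayed within 1.5 times under all alternatives except the replicate block and the t-test of the study's methods. Leaving out a replicate gave 2 probe sets higher and 7 to 8 lower each time. The counts of pathway genes (22 higher and 9 lower) depended more on the replicates, with 11 to 16 higher and 5 to 9 lower when a replicate was left out. With technical replicate 2 averaged with biological replicate 2, 14 pathway genes were higher, with it left out 10, and with it averaged with the array it correlated best with 11, the last chosen after seeing the data. With a replicate block the family had 2 genes higher, Errfi1 being called (0.34, adjusted p = 0.026), and the pathway lists had 15 genes lower. Over the whole table the block gave 6008 probe sets higher and 5865 lower, against 4429 and 4098 without it. The difference between replicates 1 and 2 correlated between the states (r = 0.54 over probe sets), but with only 2 numbers the samples share no more than a number. The methods' t-test at a p under 0.05 and at least 2-fold gave 1 probe set of the family higher and 3 lower, 2 genes lower, and 3 pathway genes higher and 3 lower, with 1523 probe sets higher and 1320 lower over the whole table. After Benjamini-Hochberg adjustment it called 0 in each of these counts, where an unadjusted p under 0.05 alone gave 1 probe set of the family higher and 5 lower. There were 2 replicates per state, and the call of Errfi1 depended on the block. If a constant near 16 was added before deposit, it would limit the size of any change at low signal.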
